A study of Mus musculus with 4 samples.

Results

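Interferon-stimulated genes (ISGs) were followed in blood vascular endothelial cells (BECs) of resting mouse ear skin. The 33 genes were taken as a list of well-known interferon targets by a rule that used no measured value, although earlier results of these data were known when the list was made, and were 33 of the 46517 genes counted; all 33 were present in the count tables. Ears of wild-type female C57Bl/6 mice (12 to 26 weeks old by the labels, with no treatment named; the methods of the study name the J substrain and a younger range) were dissociated, and live cells positive for CD31 and negative for CD45 and Lyve1 were sorted singly into wells for Smart-seq2, which reads full-length transcripts. There were 2 replicates, each a pool of cells from 6 mice spread over 2 plates (A and B) of 384 wells. No mice treated with interferon or infected were part of the series, so "at rest" means untreated and dissociated, and the level without dissociation was not measured.

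Interferons act through receptors on the cell surface that switch on JAK kinases and STAT transcription factors. Type I and type III interferons act through a complex with STAT2 and IRF9 that binds the interferon-stimulated response element (ISRE) in promoters, whereas interferon gamma acts mainly at the gamma-activated site (GAS). The induced proteins block viral entry, translation and replication, restrict intracellular pathogens, or feed back on the pathway itself, and many tissues hold low levels of them without infection.

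The promoters of 6 members are shown because they stand for the main roles below and carry the shared element. Each line gives the 250 bases before the RefSeq start site in GRCm38.p6, 5′ to 3′ on the strand of the gene. Capitals mark every match to the ISRE core on either strand, that is GAAA, any 2 bases and GAAA again. A match on the other strand reads as TTTC, 2 bases and TTTC, and overlapping matches run together.
Isg15 (ENSMUSG00000035692, chr4:156200819-156201068, minus strand): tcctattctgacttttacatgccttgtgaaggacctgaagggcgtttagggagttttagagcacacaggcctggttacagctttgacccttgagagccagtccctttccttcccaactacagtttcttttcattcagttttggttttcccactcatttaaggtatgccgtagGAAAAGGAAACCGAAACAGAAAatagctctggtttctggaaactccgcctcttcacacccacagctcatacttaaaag
Ifit3 (chr19:34583279-34583528, plus strand): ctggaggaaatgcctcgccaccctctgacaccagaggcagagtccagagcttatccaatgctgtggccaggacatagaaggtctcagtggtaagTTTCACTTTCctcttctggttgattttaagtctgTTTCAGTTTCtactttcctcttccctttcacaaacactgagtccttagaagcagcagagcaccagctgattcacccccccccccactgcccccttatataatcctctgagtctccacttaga
Rsad2 (chr12:26456453-26456702, minus strand): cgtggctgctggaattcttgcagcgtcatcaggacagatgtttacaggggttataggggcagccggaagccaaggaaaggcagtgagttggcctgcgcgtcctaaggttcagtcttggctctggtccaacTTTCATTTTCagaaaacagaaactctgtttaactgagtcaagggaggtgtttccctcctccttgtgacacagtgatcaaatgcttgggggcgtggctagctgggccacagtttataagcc
Ifitm2 (chr7:140955962-140956211, minus strand): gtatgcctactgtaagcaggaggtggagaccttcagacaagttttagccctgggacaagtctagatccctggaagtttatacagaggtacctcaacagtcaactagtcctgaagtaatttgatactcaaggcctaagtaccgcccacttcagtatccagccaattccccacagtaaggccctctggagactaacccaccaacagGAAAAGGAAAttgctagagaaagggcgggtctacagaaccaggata
Gbp2 (chr3:142620413-142620662, plus strand): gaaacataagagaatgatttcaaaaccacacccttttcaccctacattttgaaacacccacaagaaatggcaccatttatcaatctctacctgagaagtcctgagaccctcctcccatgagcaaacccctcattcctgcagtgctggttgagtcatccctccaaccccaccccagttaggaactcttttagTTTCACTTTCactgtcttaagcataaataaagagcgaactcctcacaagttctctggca
Irgm1 (chr11:48871421-48871670, minus strand): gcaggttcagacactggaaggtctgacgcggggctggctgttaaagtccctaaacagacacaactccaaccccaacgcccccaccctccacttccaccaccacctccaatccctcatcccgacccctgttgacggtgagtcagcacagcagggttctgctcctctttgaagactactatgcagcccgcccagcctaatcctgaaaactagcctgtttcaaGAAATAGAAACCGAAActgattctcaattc
The *Isg15* window held 3 overlapping cores, the first beginning 78 bases before the start site. In *Ifit3* there were 2 cores, the first 156 bases before the start. Single cores began 120 bases before the start of *Rsad2*, 46 before *Ifitm2* and 59 before *Gbp2*, while *Irgm1* had 2 overlapping cores beginning 30 bases before its start. Windows of 300 bases, running from 250 bases before to 50 after the start, were found for 24 of the 33 members. An ISRE core lay in 14 of these 24 members (58.3%), against 3.99% of the 27025 genes with a window. The GAS letters, TTCNNNGAA, lay in 6 of 24 (25%), against 9.55% of genes. Such matches describe letters in a window and are not binding sites. Several members are neighbours: *Ifit1*, *Ifit2* and *Ifit3* lie together on chromosome 19, *Gbp2*, *Gbp3* and *Gbp7* on chromosome 3, *Rsad2* and *Cmpk2* on chromosome 12, and *Ifitm2* and *Ifitm3* on chromosome 7.

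Of 1536 wells, 701 were kept (156 from plate A and 182 from plate B in replicate 1, 176 and 187 in replicate 2). A kept well held 600 reads or more, 500 to 8000 genes, and a read of 2 or more of the endothelial genes *Pecam1*, *Kdr* and *Cdh5*. Wells were dropped where *Prox1* or *Lyve1* (lymphatic), *Ptprc* (leukocyte), or *Kcnj8* or *Pdgfrb* (mural) reached 100 CPM, the count of a gene scaled to the total of its well. The libraries of the replicates differed: the median kept well held 142614.5 reads and 4540 genes in replicate 1 but 92974 reads and 2576 genes in replicate 2, and the spike-in share was 0.314% and 1.68%. *Pecam1* had a read in every kept well, and *Cdh5* in 99.4% and 81.8%. Leukocyte markers were near 0: the most widespread of 12, *Lyz2*, had a read in 8.28% and 3.58% of wells, *Cd52* and *Nkg7* had none, and the summed level of the list was 21.05 CPM in replicate 1 and 176.2 CPM in replicate 2. Haemoglobin RNA, which endothelial cells should lack, gave the background of stray reads: *Hba-a2* had a read in 30.5% and 3.58% of wells, whereas no haemoglobin gene reached 100 CPM in more than 6.80% and 1.38% (*Hbb-bs*). Shares of wells over a whole replicate are therefore given mainly as wells with at least 100 CPM, which haemoglobin genes reached in few wells. RNA of mural cells and fibroblasts was more widespread: *Rgs5*, a mural gene, reached 100 CPM in 65.1% and 16.3% of wells, *Tagln* in 29.3% and 26.7% and the fibroblast collagen *Col3a1* in 7.69% and 7.99%, so a share at 100 CPM is not free of RNA from other cells. No name of a well was shared between plates.

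The members together took 5330 and 5266 CPM on the A and B plates of replicate 1, and 3945 and 3881 CPM on the plates of replicate 2, which is 0.533%, 0.527%, 0.394% and 0.388% of reads. These values cover all kept wells, also the 135 and 235 given no vessel class below. The plates of 1 replicate lay close together, and both plates of replicate 1 lay above both of replicate 2. *Ifitm2* and *Ifitm3* made up a large part of this sum, which without them was 3609, 3216, 2671 and 2651 CPM. A read in at least 10% of wells of both replicates was found for 29 members. Among these, both plates of replicate 1 were above both plates of replicate 2 for 18 (62.1%, against 36.7% of the 7629 genes detected that widely), the reverse held for 3 (10.3%, against 21.4%), and the plates overlapped for 8 (27.6%, against 41.9%). With 1 pool per replicate, a difference between pools of mice and one between library preparations cannot be told apart. Markers of other cells in the kept wells differed too. In replicates 1 and 2, lymphatic markers summed to 66.14 and 969.2 CPM, fibroblast markers to 440.7 and 720.6 CPM and mural markers to 1288 and 527.5 CPM. Their part in the difference was not tested.

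**Figure D1:**
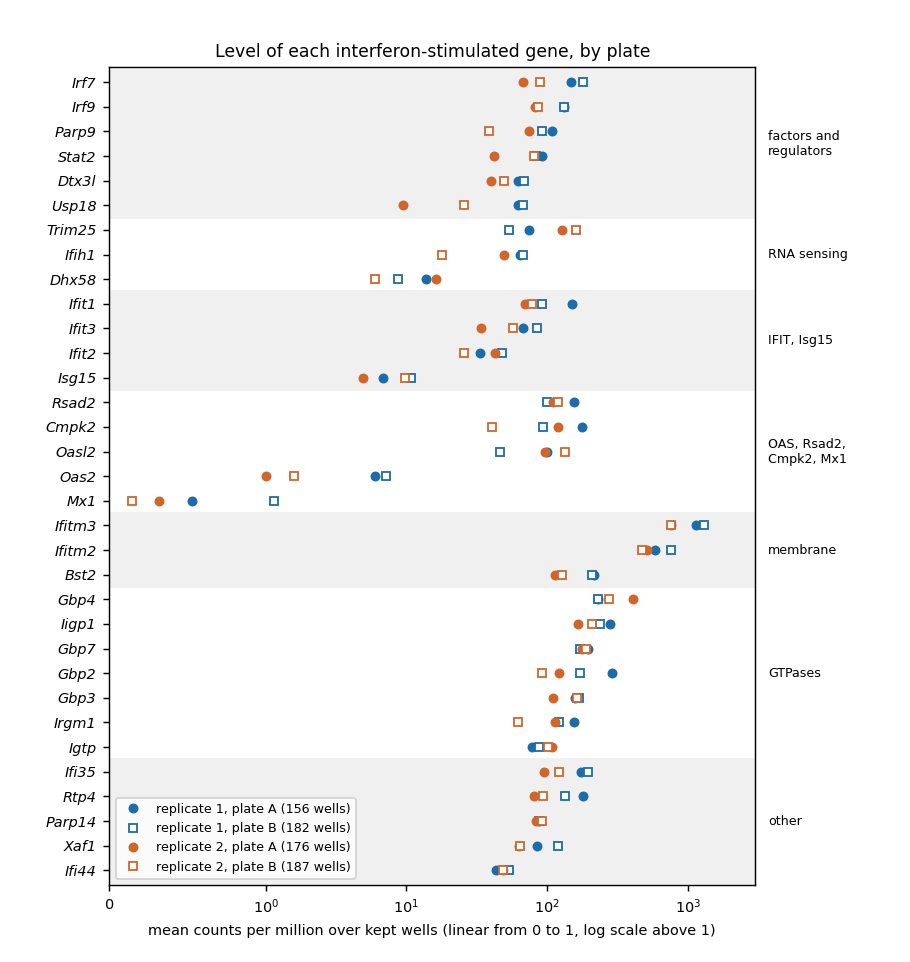
Mean CPM per kept well of each member, with 1 mark for each of the 4 plates and members grouped by role. The axis is linear from 0 to 1 CPM and logarithmic above. *Ifitm3* and *Ifitm2* lie highest on all plates, between 469.8 and 1293 CPM, and *Mx1* and *Oas2* lowest.

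Among the membrane-associated restriction factors, *Ifitm3* and *Ifitm2* had the highest levels of all members and the highest shares of wells at 100 CPM. *Ifitm3*, which hinders viral fusion in endosomes, averaged 1141 and 1293 CPM per well on the A and B plates of replicate 1 and 759.4 and 760.3 CPM on those of replicate 2. It reached 100 CPM in 98.8% and 75.8% of wells of the replicates. Its neighbour and close relative *Ifitm2* averaged 580.5, 757.7, 514.7 and 469.8 CPM on the same plates, and reached 100 CPM in 95.9% and 63.1% of wells. For both genes replicate 1 was higher without overlap. *Bst2* (tetherin), which holds budding virions at the cell surface, averaged 213.2, 206.3, 113.9 and 128.2 CPM, in 50.6% and 28.7% of wells at 100 CPM or more. Scaled by exon length, so that genes can be compared, the level of *Ifitm3* was 1804 and 1121 CPM per kb in the replicates, that of *Ifitm2* 1032 and 750.5, and that of *Bst2* 232.0 and 134.3. The next members on that scale were *Ifi35*, at 107.1 and 62.61 CPM per kb, *Gbp2*, at 89.3 and 42.36, and *Rtp4*, at 72.73 and 40.98. Both *Ifitm* genes were therefore several times above every other member per length in both pools.

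Interferon-inducible GTPases, which attack the vacuoles of intracellular pathogens, formed the next group, and all 7 were detected in both replicates. *Gbp4* averaged 228.9, 230.1, 404.5 and 273.9 CPM on the 4 plates, higher in replicate 2. *Iigp1* averaged 276.9, 238.1, 165.4 and 207.7 CPM, higher in replicate 1, with 37.0% and 19.3% of wells at 100 CPM or more. *Gbp2* averaged 288.1, 170.3, 121.8 and 92.31 CPM, again higher in replicate 1. The guanylate-binding protein *Gbp7* barely moved between plates, at 194.0, 170.3, 177.6 and 187.2 CPM (181.8 ± 0.9192, SD, n = 2 replicates), although 11.3% of its exon bases are shared with a pseudogene. *Gbp3* averaged 158.4, 168.0, 109.5 and 161.5 CPM, and the plates overlapped. Of the immunity-related GTPases, *Irgm1*, a regulator of the others, averaged 155.8, 121.8, 113.6 and 62.16 CPM. *Igtp*, which shares 8.01% of its exon bases with *Irgm2*, averaged 77.77, 87.97, 108.4 and 101.7 CPM, and was among the 3 members higher in replicate 2.

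The transcription factors and regulators of the pathway were present at rest. *Irf7*, the factor that amplifies type I interferon, averaged 147.4, 180.0, 67.02 and 89.15 CPM, and reached 100 CPM in 28.1% and 11.8% of wells. *Irf9*, the DNA-binding part of the STAT complex, averaged 131.8, 130.4, 82.06 and 86.23 CPM, and its partner *Stat2* averaged 92.38, 83.39, 41.86 and 79.82 CPM. All 3 were higher in replicate 1 without overlap. *Usp18*, which removes ISG15 from proteins and damps receptor signalling, averaged 61.58, 67.7, 9.468 and 25.66 CPM, a wide gap between replicates for its mean (41.34 ± 33.28 CPM, SD, n = 2 replicates). *Parp9* averaged 107.5, 92.08, 73.65 and 38.69 CPM and its binding partner *Dtx3l*, a ubiquitin ligase, 61.83, 68.85, 39.94 and 49.62 CPM. These partners are transcribed from opposite strands and share 9.40% and 8% of their exon bases, and the counting was not stated to use strand, so reads there cannot be assigned to either.

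Among sensors of viral RNA and their partners, *Ifih1* (MDA5) averaged 63.61, 67.32, 48.95 and 17.78 CPM, and *Trim25*, a ubiquitin ligase of the RIG-I pathway, 73.95, 53.13, 127.8 and 159.4 CPM. The former was higher in replicate 1 and the latter in replicate 2. *Dhx58* (LGP2) had a read in 12.7% and 5.79% of wells, below the share of *Hba-a2* in replicate 1, and averaged 10.96 CPM ± 0.07778 (SD, n = 2 replicates).

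The classical antiviral effectors, which interferon raises most steeply in many cell types, spanned a wide range of levels. *Ifit1*, which binds viral RNA lacking the host cap, averaged 150.6, 92.01, 69.39 and 78.18 CPM, or 44.83 and 27.83 CPM per kb in the replicates beside 30.63 and 45.0 for *Gbp4*, and a single well of 8035 CPM gave 20.0% of the signal of replicate 1. *Ifit3*, its partner, averaged 67.27, 83.84, 33.99 and 57.37 CPM and reached 100 CPM in 18.9% and 7.99% of wells. *Ifit2* averaged 37.53 CPM ± 4.936 (SD, n = 2 replicates) with a read in 24.9% and 7.71% of wells. *Isg15*, the ubiquitin-like modifier, averaged 6.834, 10.75, 4.88 and 9.839 CPM, or 11.83 and 9.835 CPM per kb in the replicates, under *Ifit3* at 43.66 and 26.38 CPM per kb. The shares of wells with a read of *Ifit2* and *Isg15* in replicate 1 were under that of *Hba-a2*.

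*Rsad2* (viperin), which makes a chain-terminating nucleotide, averaged 153.9, 100.0, 110.6 and 118.7 CPM, and its genomic neighbour *Cmpk2*, a nucleotide kinase, 175.9, 93.74, 119.4 and 40.8 CPM; the replicates overlapped for both. In replicate 2 a single well of 11610 CPM held 40.5% of the *Cmpk2* signal. *Oasl2*, of the oligoadenylate synthetase family, averaged 99.51, 45.77, 95.88 and 133.3 CPM, of which a single well of 12140 CPM gave 29% in replicate 2. *Oas2* and *Mx1*, both strongly inducible, were close to absent at this depth. *Oas2* had a read in 3.85% and 0.826% of wells, and *Mx1* in 1.48% and 1.38%, all at or under the share of haemoglobin reads. Laboratory C57Bl/6 mice are known to carry a defective *Mx1*, which is given here as background.

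The remaining members had a read in at least 10% of wells of both replicates. The share of *Ifi44* in replicate 1, 26.6%, was under that of *Hba-a2*. *Ifi35* averaged 173.5, 194.8, 94.93 and 120.6 CPM, with 16.8% of its exon bases under the antisense gene *Gm11626*. *Rtp4*, a chaperone known to restrict flaviviruses, averaged 179.4, 134.1, 80.96 and 93.34 CPM, and *Xaf1*, linked to apoptosis, 84.41, 119.0, 63.41 and 63.9 CPM. For these 3 genes replicate 1 was higher without overlap. *Parp14*, an ADP-ribosyltransferase, averaged 87.55, 87.78, 82.79 and 91.31 CPM, and *Ifi44* 43.4, 53.47, 48.78 and 48.73 CPM. The plates overlapped for both, and their replicate means nearly coincided (87.43 ± 0.3465 and 48.78 ± 0.0495 CPM, SD, n = 2 replicates).

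The rest of the pathway, from lists of its parts, showed which components accompany these levels. Of 20 interferon genes, 17 had no read in any kept well and none had a read in 10% of wells of both replicates. Receptors, JAK kinases, STATs and their inhibitors had 12 of 16 genes at that level, led by *Socs3*, the inhibitor of cytokine receptors (631.9 and 317.4 CPM in the replicates), *Ifngr1*, a chain of the interferon gamma receptor (426.3 and 128.0 CPM), and *Stat3* (265.3 and 316.4 CPM). Of 10 genes of the IRF family or named with it, 5 passed, led by *Irf1* (506.1 and 605.1 CPM). Nucleic-acid sensing had 6 of 15, with *Tmem173* (STING) at 113.3 and 141.9 CPM, *Myd88* at 96.66 and 113.6 CPM and *Tbk1* at 79.71 and 58.16 CPM. Of 109 further interferon-induced genes, 60 passed, and antigen presentation led them: *H2-D1* averaged 1963 and 1275 CPM, *H2-K1* 1489 and 1269 CPM, and *B2m* 1340 and 1098 CPM.

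To compare vessel segments, wells were clustered without the members or the other interferon genes, and clusters were named from markers. The artery-like class held 71 wells (32 and 39 in the replicates), with 14 of 14 artery markers higher than in the remaining wells and led by *Vegfc*, *Fbln5* and *Sema3g*. The capillary-like class held 127 wells (110 and 17), led by *Aqp7*, *Car4* and *Cd36*. The vein-like class held 133 wells (61 and 72): a cluster of 92 led by *Sele*, *Selp* and *Ackr1*, genes of the activated and post-capillary endothelium, and a cluster of 41 led by *Tll1* and *Cysltr1*. The other 370 wells, among them 127 shallow wells with lymphatic, mural and fibroblast markers, were given no name. Vein-like wells were deepest, with a median of 188105 and 194679.5 reads against 138826 and 142172 in artery-like wells, and they showed more genes per 20000 reads (3158 and 2089.5 against 2193 and 1675). The capillary-like class of replicate 2 rests on 17 wells, and a single well there held 99% of the *Ifit3* and 99.7% of the *Oasl2* signal.

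Artery-like wells had the higher summed level of the members than vein-like wells in both replicates, at 6180 against 4952 CPM per well in replicate 1 and 5579 against 4045 CPM in replicate 2. Capillary-like wells lay between them in replicate 1, at 5537 CPM, and above both in replicate 2, at 6565 CPM. Replicate 1 was thus the higher in artery- and vein-like wells and replicate 2 in capillary-like wells. Without *Ifitm2* and *Ifitm3* the sums were 4451, 3720 and 2728 CPM in artery-, capillary- and vein-like wells of replicate 1 and 4117, 4620 and 2526 CPM in replicate 2. Vein-like wells were thus lowest in both pools on either sum. Leukocyte markers summed to at most 18.99 CPM in any of these classes, while mural markers summed to 1464 and 496.3 CPM in artery-like, 1551 and 305.1 CPM in capillary-like and 1079 and 438.8 CPM in vein-like wells. Fibroblast markers summed to 123.8 and 263.7 CPM in artery-like, 344.1 and 84.55 CPM in capillary-like and 110.4 and 66.72 CPM in vein-like wells, and erythroid genes to 359.1 and 7.712, 94.19 and 0.6218, and 42.61 and 5.622 CPM. The part of RNA from these other cell types in the differences was not tested.

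The gap was wide for some of the classical effectors but not for *Isg15*, whose sums overlapped (5.177 and 14.82 CPM in artery-like, 10.18 and 4.716 CPM in vein-like wells). Summed reads of artery-like wells gave 165.9 and 93.79 CPM of *Ifit2* in replicates 1 and 2, capillary-like wells 39.13 and 302.8 CPM, and vein-like wells 8.018 and 14.09 CPM. For *Ifit3* the levels were 145.4 and 163.9 CPM in artery-like, 78.61 and 187.2 CPM in capillary-like and 33.52 and 11.02 CPM in vein-like wells. *Rsad2* stood at 72.48 and 312.1 CPM, 114.5 and 237.7 CPM, and 19.0 and 34.36 CPM in the same order. Both vein-like sums lay under the 4 others for all 3 genes. The same held for *Ifit1* (vein-like 49.41 and 25.05 CPM, others 93.54 to 176.9 CPM), *Irf7* (102.2 and 82.98 CPM, others 134.3 to 357.5 CPM), *Xaf1* (68.33 and 36.99 CPM, others 87.53 to 244.0 CPM) and *Gbp7* (168.0 and 172.3 CPM, others 220.7 to 335.1 CPM). These 7 of 32 members measured in the sums (21.9%) compare with 3.97% of the 14365 genes. The count was 5 to 8 under other settings but 0 where wells had to hold under 10 CPM of the non-endothelial genes, which left 2 artery-like and 1 capillary-like wells in replicate 1. No member had both vein-like sums above the others, a pattern of 9.50% of genes.

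**Figure D2:**
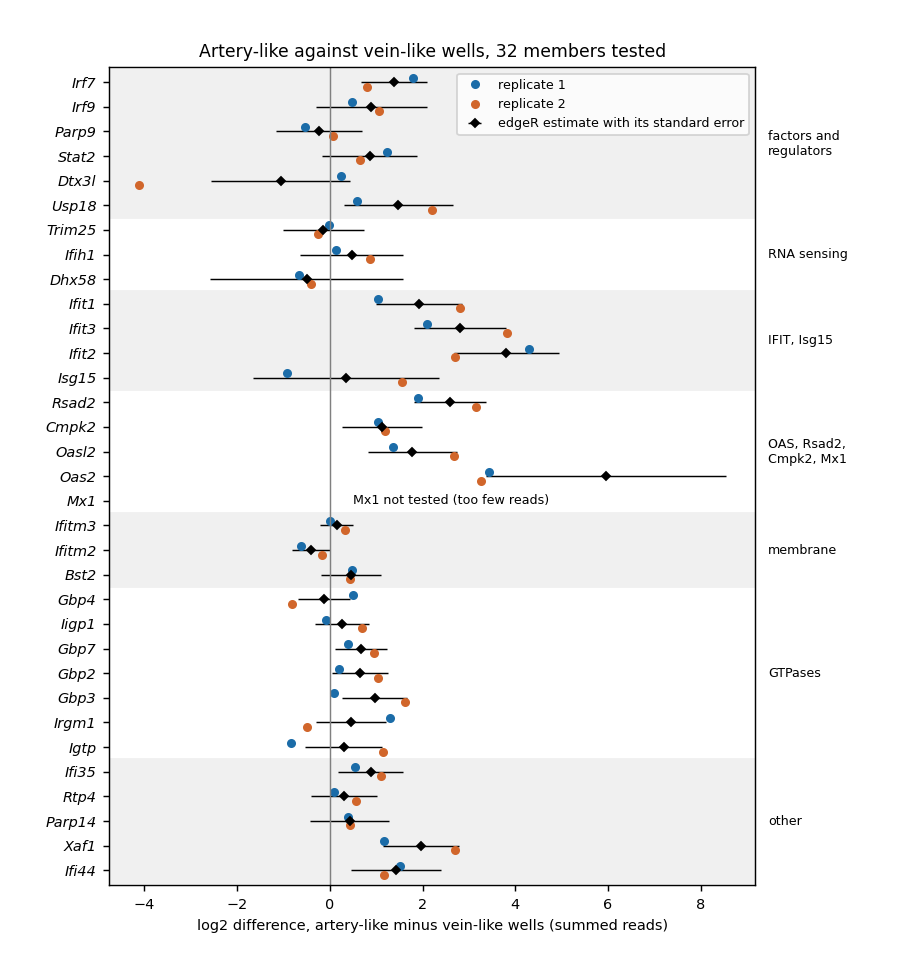
Difference in level between artery-like and vein-like wells (summed reads, log2 scale, above 0 where artery-like wells are higher) for the 32 members measured, with 1 point per replicate and the edgeR estimate with its standard error as a diamond and bar. The estimates of *Ifit2* (3.81), *Ifit3* (2.81) and *Rsad2* (2.59) and both of their replicates lie to the right of 0, that of *Oas2* rests on few reads, and those of *Ifitm3* and *Gbp4* lie near 0.

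For artery- against vein-like wells alone, the sums did not overlap with artery-like higher for 16 of 32 members (50.0%, against 14.7% of genes) and with vein-like higher for 1, *Ifitm2* (3.12%, against 22.9%). Its levels were 509.8 and 486.5 CPM in artery-like and 780.7 and 546.0 CPM in vein-like wells. *Ifitm3* overlapped, at 1193 and 1025 against 1196 and 820.9 CPM, as did *Gbp4*, at 286.3 and 247.9 against 202.8 and 436.3 CPM, and *Iigp1*, at 245.3 and 262.0 against 258.7 and 162.7 CPM. *Oas2* rested on 30 and 27 reads in artery-like and 2 and 1 reads in vein-like wells. Both artery-like sums were above the 4 others for 4 members, *Gbp2*, *Ifit1*, *Parp14* and *Xaf1* (12.5%, against 7.60% of genes), and below them for *Ifitm2* alone (3.12%, against 6.84%). Both capillary-like sums were above the others for 1, *Rtp4* (3.12%, against 5.02%), and below them for 0 (against 7.64% of genes).

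None of these differences passed the test over all genes. By the quasi-likelihood test of edgeR, which took the replicate as a block and adjusted over all genes by Benjamini-Hochberg, 0 of 32 members and 0 of 14365 genes (0.0%) were called between artery- and vein-like sums, and at an unadjusted p under 0.05 there were 5 members and 785 genes (5.46%). *Ifit2* differed by 3.81 on the log2 scale (SE 1.13), higher in the artery-like wells of both replicates. *Rsad2* differed by 2.59 (SE 0.78), *Ifit3* by 2.81 (SE 1) and *Xaf1* by 1.96 (SE 0.82), in the same direction in both replicates. The fifth was *Oas2*, and edgeR's adjusted p was 0.911 for all 5. The same 2 pools gave every class, and the block takes out the level of each pool. These p-values therefore rest on how far class differences varied between 2 pools, with the spread estimated partly from all genes.

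For vein-like against the mean of the other classes, edgeR called 0 members beside 4 genes (0.0278%), and 3 members had an unadjusted p under 0.05, beside 761 genes (5.30%). The log2 difference was -2.63 for *Rsad2* (edgeR, adjusted p = 0.795), -3.74 for *Ifit2* (adjusted p = 0.795) and -2.70 for *Ifit3* (adjusted p = 0.853). DESeq2, run on the same sums, called 1 member here, *Ifit2* (adjusted p = 0.0133), beside 271 genes (1.89%), and the same gene between artery- and vein-like sums (adjusted p = 0.0301), beside 426 genes (2.97%). limma, fitted to class means of log2(reads + 1) after thinning each well to 20000 reads, called *Rsad2* lower in vein-like wells (difference -0.62, adjusted p = 0.0225) among 403 genes (5.08%), and no member between artery- and vein-like wells, where it called 300 genes (3.78%). For artery-like wells against the others 0 members were called by edgeR (0 genes), by DESeq2 (399 genes, 2.78%) or by limma (112 genes, 1.41%). For capillary-like wells 0 members were likewise called by edgeR (0 genes), by DESeq2 (177 genes, 1.23%) or by limma (110 genes, 1.39%). There edgeR gave an unadjusted p under 0.05 for 1 member in each, *Xaf1* and *Rsad2*, beside 600 and 467 genes (4.18% and 3.25%).

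As a list, the members leaned towards lower levels in the sums of vein-like wells, and less so on other scales. Their median log2 difference was 0.66 between artery- and vein-like sums, where all genes had -0.20, with 6 of 32 members (18.8%) below 0, against 56.2% of genes. It was -0.58 for vein-like against the others, where all genes had 0.31. In the latter comparison 27 of 32 members (84.4%) were below 0, against 39.2% of genes, and 62.5% were below 0 in both replicates, against 19.4% of genes. The median was -0.04 at the limit of 10 CPM on non-endothelial genes and -0.06 with limma on thinned wells, where 17 of 29 members (58.6%) were below 0, against 24.6% of genes. By role, the median of *Ifit1*, *Ifit2*, *Ifit3* and *Isg15* was -2.17, that of *Rsad2*, *Cmpk2*, *Oasl2* and *Oas2* -2.29, that of *Xaf1*, *Rtp4* and the other remaining members -0.89, that of the GTPases -0.39, that of the transcription factors and regulators -0.32 and that of the membrane factors -0.13. The sensors had a median of 0.11, with 2 of 3 above 0 in both replicates. With limma on thinned wells all genes had a median of 0.11. There the GTPases (0.02), the transcription factors and regulators (0.02) and the membrane factors (0.27) had medians above 0. The *Ifit* and *Isg15* group (-0.41), the *Rsad2* group (-0.24) and the remaining members (-0.11) stayed below 0, and the sensors were at 0.14. Against all genes, the membrane factors and the sensors lay higher and the other roles lower. Of the 109 further interferon-induced genes, 91 were tested in the sums and had a median of -0.31, with 64.8% below 0. With limma 64 were tested, with a median of 0.02 and 45.3% below 0, where all genes had a median of 0.11 and 24.6% below 0.

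The share of wells gave a less uniform picture than the sums. After thinning to 20000 reads, *Ifit2* had a read in 25% and 17.1% of artery-like wells against 6.56% and 4.17% of vein-like wells, *Ifit3* in 34.4% and 20.0% against 26.2% and 8.33%, and *Rsad2* in 15.6% and 22.9% against 8.20% and 13.9%. *Irf7* had a read in 50.0% and 25.7% against 34.4% and 16.7%. After the same thinning the haemoglobin gene *Hbb-bs* had a read in 20.2% and 1.70% of kept wells. This was above the replicate 1 shares of *Rsad2* in both classes and of *Ifit2* in vein-like wells, and those shares are therefore not read as expression. The background covers all kept wells and is not given per class. Erythroid genes summed to 359.1 CPM in artery-like and 42.61 CPM in vein-like wells of replicate 1, so it may differ between these classes. At 100 CPM or more the shares of artery- against vein-like wells were 21.9% and 12.8% against 3.28% and 4.17% for *Ifit2*, 31.2% and 17.9% against 13.1% and 6.94% for *Ifit3*, and 12.5% and 17.9% against 3.28% and 6.94% for *Rsad2*. Artery-like wells had the higher share in both replicates for 10 of 32 members (31.2%, against 9.24% of the 14365 genes), and for 9 of these (28.1%, against 4.80% of genes) the sums did not overlap either (*Gbp7*, *Ifit1*, *Ifit2*, *Ifit3*, *Irf7*, *Oas2*, *Oasl2*, *Rsad2* and *Xaf1*). These counts include *Rsad2*, despite its shares under the haemoglobin background in replicate 1. They also include *Ifit1*, at 21.9% of artery-like and, under that background, 16.4% of vein-like wells of replicate 1. *Oas2* is among them too, with a read in 3.12% and 2.86% of artery-like wells, 1 well in each replicate, and in no vein-like well. The counts therefore describe the order of the shares and not expression. Vein-like wells had the higher share in both for 9 others (28.1%, against 49.2% of genes), among them *Iigp1* (70.5% and 40.3% against 40.6% and 31.4%), *Gbp4* (59.0% and 62.5% against 50.0% and 31.4%) and *Ifitm2*. For *Iigp1* and *Gbp4* the levels given above had no one direction over the replicates, and no order is read from the share. Single wells weighed heavily in the sums: the highest artery-like well held 26.1% and 44.4% of the *Ifit2* signal of its class and replicate, 21.3% and 30.1% for *Ifit3*, and 41.3% and 30.6% for *Rsad2*.

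Other pathway genes were not called by edgeR in any of the 4 comparisons, and those named here as called by limma or DESeq2 were picked after their values were seen. On the scale of log2(thinned reads + 1), limma called *Socs3* (1.91, adjusted p = 1.01e-05), *Tmem173* (1.22, adjusted p = 4.52e-05), *Irf1* (1.17, adjusted p = 0.0131), *Jak1* (1.04, adjusted p = 0.00637) and *Myd88* (0.91, adjusted p = 0.000925) higher in vein-like wells than in the others. Of all 403 genes called there, 372 were higher in vein-like wells. *Socs3* averaged 1044 and 878.4 CPM in vein-like wells of the replicates against 395.2 and 215.1 CPM in artery-like wells, and *Tmem173* averaged 189.2 and 337.7 against 60.27 and 127.2 CPM. *Socs3*, *Tmem173* and *Jak1* were also called between artery- and vein-like wells by limma (-1.84, -1.14 and -1.05, adjusted p = 0.000249, 0.00124 and 0.023). *Il10rb*, a receptor chain shared by interleukin 10 and type III interferons, went the other way, higher in artery-like than in vein-like wells (0.92, limma, adjusted p = 0.048) and than in the other classes (0.92, adjusted p = 0.0353).

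The further interferon-induced genes are named from a list, and their response to interferon was not tested here. Among the genes of that list, limma called *Bst1* (0.37, adjusted p = 0.000793), *Slfn2* (0.74, adjusted p = 0.00795) and *Casp4*, an inflammatory caspase (0.88, adjusted p = 0.00806), higher and *Lgals3bp* lower (-0.85, adjusted p = 0.0257) in vein-like wells than in the others. *Bst1* and *Slfn2* were called between artery- and vein-like wells too (-0.39 and -0.71, limma, adjusted p = 0.00337 and 0.0414). In capillary-like wells limma called *Myd88* (-0.84, adjusted p = 0.0101) and *Tapbp*, which serves antigen presentation (-1.31, adjusted p = 0.0268), lower. DESeq2 on the sums called *Bst1* in the same direction as limma (-8.85 between artery- and vein-like sums, adjusted p = 0.000823). It called *Ifi27l2a* and *Ifi213* higher in artery- than in vein-like sums (5.95 and 5.56, adjusted p = 0.0103 and 0.0426), and *Apol9a* higher in artery-like sums than in the others (5.75, adjusted p = 0.0135). These calls rest on few wells: in the replicates *Ifi213* had a read in 3.12% and 2.56% of artery-like wells, 1 well in each, *Apol9a* in 6.25% and 5.13%, and *Ifi27l2a* in 21.9% and 17.9%, while *Bst1* had a read in 37.7% and 19.4% of vein-like wells. The adjusted p of edgeR for the genes of this and the preceding paragraph was 0.795 to 1 in these comparisons.

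Whether the members rise together in single wells was read from pairs of members over wells of 1 replicate. Over the 406 pairs of the 29 widely detected members, the median Spearman correlation was 0.0704 over 338 wells of replicate 1 and 0.0930 over 363 wells of replicate 2, where all pairs of 7629 genes had medians of 0.0212 and 0.0450. With depth held fixed the members' medians were 0.0702 and 0.0691, against 0.0170 and 0.0142 for all genes. Without that adjustment, correlations above 0.2 were 4.19% and 5.91% of the pairs of members and 0.194% and 1.13% of all pairs. With depth held fixed the shares were 4.19% and 1.97% for members and 0.152% and 0.258% for all pairs. The wells of a replicate share their library preparation and, in part, their plate and depth, and most of these correlations are weak in sparse counts, so they are a description only. Within classes, with depth held fixed, the medians were 0.0942 and 0.0975 in artery-like wells (all genes 0.00504 and 0.00181), 0.0592 and 0.0736 in capillary-like wells (all genes 0.00733 and -0.0435), where replicate 2 has 17 wells, and 0.103 and 0.0276 in vein-like wells (all genes 0.0146 and 0.00816).

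**Figure D3:**
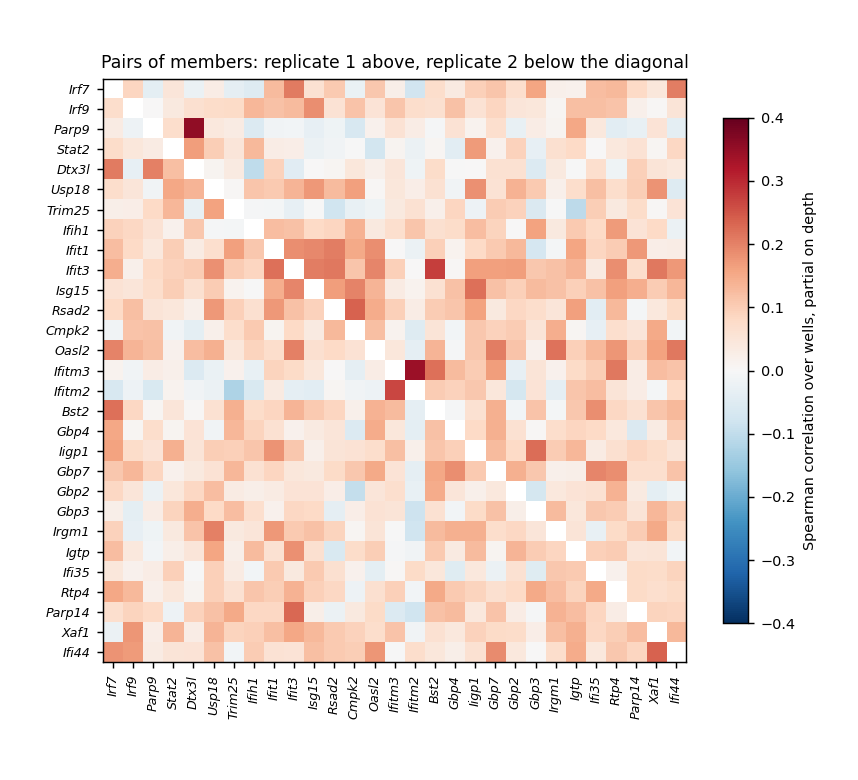
Heat map of the Spearman correlation over wells, with depth held fixed, of each pair of the 29 widely detected members, with replicate 1 above and replicate 2 below the diagonal. *Parp9* with *Dtx3l* (0.356 and 0.202) and *Ifitm2* with *Ifitm3* (0.343 and 0.268) stand out, and most squares are pale.

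The pairs with the highest correlations in both replicates were neighbours or partners. *Ifitm2* with *Ifitm3* gave 0.343 and 0.268 with depth held fixed, and these genes are close relatives whose reads may be shared between them. *Parp9* with *Dtx3l* gave 0.356 and 0.202, and these overlap on opposite strands. Next came pairs without overlapping exons: *Ifit3* with *Oasl2* (0.196 and 0.200), *Ifit3* with *Isg15* (0.205 and 0.195), *Ifit1* with *Ifit3* (0.187 and 0.219) and *Irf7* with *Ifi44* (0.205 and 0.179). *Ifit3* had the highest median with the other members in replicate 1, 0.131, and 0.102 in replicate 2. The most abundant member but one, *Ifitm2*, had 0.0294 and -0.0223, and *Parp9* 0.0132 and 0.0323.

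The number of members present per well spread widely. Among wells thinned to 20000 reads (337 of replicate 1, with 1 shallower well left out, and 294 of replicate 2, with 69 left out), the median well had a read of 10 members in replicate 1 (range 2 to 25) and of 7 in replicate 2 (range 0 to 20). At least 10 members were present in 56.7% and 19.7% of wells. By class the medians were 10 and 7 in artery-like, 10 and 6 in capillary-like and 12 and 7 in vein-like wells. For the 29 widely detected members, the mean covariance between detection of 2 members, divided by their mean variance, was 0.0654 and 0.0795. Over all genes detected that widely it was 0.0227 and 0.0192.

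**Figure D4:**
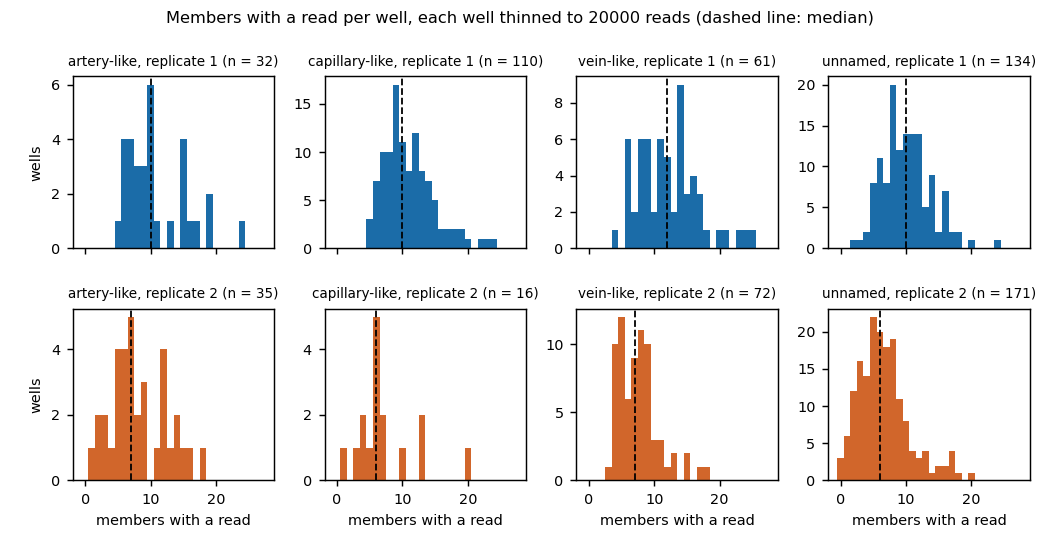
Histograms of the number of the 33 members with a read per well after thinning to 20000 reads, with the number of wells on the vertical axis, 1 panel per class and replicate, and the median as a dashed line. Over all classes the median well had 10 members in replicate 1 and 7 in replicate 2, and 57 and 18 wells had 15 or more.

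At least 15 members were present in 57 wells of replicate 1 and 18 of replicate 2, and these wells came from every class: 9 and 3 were artery-like, 17 and 1 capillary-like, 16 and 4 vein-like and 15 and 10 unnamed. They also stood on both plates (22 on plate A and 35 on plate B in replicate 1, 10 and 8 in replicate 2). Their median *Ifit3* level was 177.4 CPM in replicate 1, against 0 CPM in wells with fewer members, and their median *Iigp1* level was 298.4 against 18.75 CPM in replicate 1 and 843.5 against 0 CPM in replicate 2, which follows from how these wells were picked. Reads per well were alike in replicate 1 (median 141309 against 144208) and higher in replicate 2 (162189 against 123097.5), while genes per 20000 reads were higher in both (2823 against 2373 and 1927 against 1747.5), and their part in this was not tested. The leukocyte list had no read in 43 of the 57 and 16 of the 18 wells. The same held for 212 of 280 and 246 of 276 wells with fewer members, so the shares were alike.

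Ranked by likeness to the members' summed level over wells, genes outside the list were led by other interferon-induced genes. Of the 10 highest, 7 stood on the list of further interferon-induced genes, which had 60 of its genes among the 7600 ranked. The highest by the lower of the replicates' Spearman correlations were *Lgals9* (0.342 and 0.358), *Irgm2* (0.314 and 0.339) and *Tgtp1* (0.294 and 0.353), where the median gene had 0.0444 and 0.0990. *Rnf213* (0.273 and 0.290), *Ly6c2* (0.265 and 0.389), *B2m* (0.263 and 0.303), *Gm11626* (0.327 and 0.261), *Gm12185* (0.261 and 0.273), *Sp100* (0.254 and 0.360) and *Tgtp2* (0.247 and 0.323) completed the 10 highest. *Gm11626* lies antisense to *Ifi35* and *Irgm2* overlaps *Igtp*, so reads in the shared bases may have been counted for either gene or dropped. With depth held fixed *Tgtp1* ranked first (0.297 and 0.295), then *Irgm2* (0.308 and 0.278) and *Lgals9* (0.341 and 0.274), while *Gm12185* fell to rank 14 and *Gm11626* to rank 35 (0.322 and 0.158).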

How the data were processed

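Per the submitters' processing notes, reads were aligned to GRCm38 (mm10) and handled with TopHat2 2.1.1, SAMtools 0.1.18 and Subread 1.4.6-p5; the strand setting is not given in the sources used here. The authors deposited raw read counts per gene and well, 1 table per plate, with 92 spike-ins, which were left out of totals. The limit of 100 CPM on non-endothelial genes was set here, with 10 and 300 CPM as alternatives. It kept more wells than the study states. Wells over 8000 genes were removed and no doublet caller was run. From these counts were computed CPM per well, size factors (scran 1.30.0), clusters at resolution 1 on 1000 variable genes (scanpy 1.11.5, leidenalg 0.10.2) and sums per class and replicate. The sums were tested with edgeR 4.0.16 (TMM, at least 10 counts in at least 2 sums, adjusted p under 0.05). DESeq2 1.42.0 and limma 3.58.1 were alternatives. Each replicate is 1 pool of cells that gave all its classes, so it entered as a block. The correlations of their deviations were 0.118, 0.104 and 0.0745. Scripts were tested on simulated data, where, at the spread of these sums, edgeR called none of the changed genes and most calls of DESeq2 were false. Members and lists were chosen with earlier results of these data known, and every member may be named. Other listed genes are named by rule if called by edgeR (none was) or among the 3 highest of their list, and 10 more by likeness; those called by limma or DESeq2 alone were named after their values were seen. Ensembl identifiers were matched to symbols, positions and exon lengths of GENCODE vM21 (GRCm38), and promoters came from RefSeq. Intervals of shares are not given, since reads without molecular identifiers are not independent molecules. No unused sample column was found (0).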

Additional observations from a re-analysis of the deposited data

Results flagged for a closer look

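A single member's plate means were unevenly spaced enough to be marked by Dixon's test at the 95% level, which is met by about 1 in 20 groups by chance, and 33 members were looked at. *Gbp3*, a guanylate-binding protein, averaged 109.5 CPM over the 176 kept wells of plate A of replicate 2, whereas the other 3 plates lay between 158.4 and 168.0 CPM. The gap to the nearest plate was 0.836 of the whole range, just over the critical value for 4 values. The cause was not tested.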

How the results depend on the processing

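Counts of called genes changed with most settings. Between artery- and vein-like sums, 0 genes became 2 with DESeq2's size factors, 426 with DESeq2's test, 47 with no filter on low counts, 8 with a limit of 10 CPM on the non-endothelial genes, 1 at the next higher resolution, 14 on plate A alone, 23 on plate B alone, and, chosen after seeing the data, 2 from artery- and vein-like sums alone and 300 with limma. Without the replicate block it was 1, and 2 in place of 4 for vein-like wells against the others, and the block changed no call of a member. For artery-like wells against the others 0 became 399 (DESeq2), 39 (no filter), 1 (10 CPM), 7 (300 CPM), 22 and 25 (plates A and B) and 112 (limma). For capillary-like wells 0 became 177, 47, 6 (10 CPM), 24, 16 and 110. For vein-like wells 4 became 271, 74, 12 (10 CPM), 0 (300 CPM), 22, 34 and 403. Calls of members rose from 0 to 1 with DESeq2 between artery- and vein-like sums, and to 1 with DESeq2 and 1 with limma for vein-like wells. The 7 members with both vein-like sums lowest became 0 at the limit of 10 CPM, which leaves 2 artery-like, 1 capillary-like and 9 vein-like wells in replicate 1, and 5 to 8 under the other settings. At that limit *Rsad2* in capillary-like wells against the others turned from 1.38 to -1.93 on the log2 scale. The members' median for vein-like wells against the others was -0.43 and -0.90 without either replicate, -0.04 at 10 CPM and -0.06 with limma. Between artery- and vein-like sums it was 0.13 with limma, 0.18 on plate A, 0.86 on plate B and 0.47 to 1.01 without either replicate. The members' summed level, 4604 CPM as the mean of the replicates, was 5791 with scran size factors and 3912 to 5296 without either replicate (2660 to 3397 without *Ifitm2* and *Ifitm3*, against 3029). The median correlation of pairs, 0.0817, was 0.0993 within artery-like wells and 0.0704 to 0.0930 without either replicate. The order of members by level kept a Spearman correlation of at least 0.957 with the main order under the 4 settings tried, and single member levels moved by more than the SD over replicates for 11 of 33 at 10 CPM, 10 with scran, 4 at 300 CPM and 4 after thinning. Leaving out a replicate leaves 1 pool per class, so class differences are then values with no test.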
